A study of Mus musculus with 22 samples.

Results

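Medullary epithelial cells (MECs) of the thymus from Aire knockout mice given topotecan were compared with those from wild-type mice given the same drug. The comparison took the 3 arrays titled Aire KO Topo and the 3 titled WT Topo, chosen by title alone, out of 22 arrays of the series. KO Topo arrays came from mice labelled Aire-/- and WT Topo arrays from mice labelled Aire+/+, all of strain C57Bl/6 and 6 weeks old, and both groups had been treated with Topo. Topo is an abbreviation commonly used for topotecan, an inhibitor of topoisomerase I, and the labels do not spell it out. WT Topo 2 is labelled male and the other 5 arrays female. Doses and times were not used here, and whether an array holds RNA of 1 mouse or of a pool is not stated, so p-values measure the spread between arrays, which may in part be technical. Other pairs of groups served to choose genes and to compare differences. They were 3 KO DMSO and 3 WT DMSO arrays, which carried vehicle alone (6 weeks, but WT DMSO 3 at 4 weeks, and WT DMSO 1 labelled male), and 2 KO Etopo and 3 WT Etopo arrays, of the same genotypes, from mice given Etopo, commonly short for the topoisomerase II inhibitor etoposide (6 weeks, but WT Etopo 3 at 4 weeks). No array is shared between these 3 pairs. The remaining arrays of the series, 3 WT and 2 KO titled Etopo Topo and all at 4 weeks, were not compared here. They entered the shared estimate of the spread. All samples were live MECs gated as negative for CD45 and low for Ly51 with high MHC class II, and RNA was hybridised to Affymetrix whole-transcript arrays.

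Aire is a transcriptional regulator of MECs that induces transcripts normally made in the gut, pancreas, glands, liver, skin and other organs, so that developing T cells reactive to those proteins can be removed or diverted. Aire acts with partners that include topoisomerases, enzymes that cut and rejoin DNA to release torsion, and topotecan traps topoisomerase I on DNA. Fezf2, a second regulator of MECs, induces a largely separate set of tissue genes. The comparison asks which differences between the genotypes are present on arrays from mice given the drug.

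Median intensity was 236.15 to 246.25 on the KO Topo arrays and 255.25 to 257.88 on the WT Topo arrays. Correlation of log2 values over genes was 0.972 to 0.996 among KO Topo arrays, 0.992 to 0.995 among WT Topo arrays and 0.947 to 0.976 between the groups. KO Topo 1 stood apart. The span of log2 values between its 10th and 90th percentiles was 4.16, against 4.59 and 4.69 on the other KO Topo arrays and 4.28 to 4.47 on the WT Topo arrays. Its mean over 18 thymocyte genes (7.54) and over 19 genes of macrophages and dendritic cells (8.18) also lay above the other 5 Topo arrays (7.07 to 7.26 and 7.66 to 7.87). Counts were therefore also taken without it. Xist was high (11.97 to 12.27) and Y-linked Eif2s3y (3.77 to 4.32), Kdm5d (5.38 to 6.03) and Uty (4.70 to 5.38) were low on all 6 arrays, WT Topo 2 included, which goes against its male label.

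Transcripts of many organs were lower in KO Topo MECs. Mucl2, Ly6g and Ly6a2 were the 3 named genes with the most negative measured differences. All 3 lie on chromosome 15, and their promoters (250 bases before to 50 after the start, RefSeq, build GRCm38.p6) are shown because no other named gene had a difference of this size. Capitals mark CG pairs. The Mucl2 promoter lies at chr15:103899263-103899562 on the minus strand, that of Ly6g at chr15:75155011-75155310 on the plus strand and that of Ly6a2 at chr15:75135079-75135378 on the minus strand.
Mucl2: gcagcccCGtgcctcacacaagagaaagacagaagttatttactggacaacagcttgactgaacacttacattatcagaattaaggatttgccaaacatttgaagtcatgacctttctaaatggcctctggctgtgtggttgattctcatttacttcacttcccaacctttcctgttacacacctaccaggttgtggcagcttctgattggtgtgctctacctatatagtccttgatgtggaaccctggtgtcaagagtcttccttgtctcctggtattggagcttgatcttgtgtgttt
Ly6g: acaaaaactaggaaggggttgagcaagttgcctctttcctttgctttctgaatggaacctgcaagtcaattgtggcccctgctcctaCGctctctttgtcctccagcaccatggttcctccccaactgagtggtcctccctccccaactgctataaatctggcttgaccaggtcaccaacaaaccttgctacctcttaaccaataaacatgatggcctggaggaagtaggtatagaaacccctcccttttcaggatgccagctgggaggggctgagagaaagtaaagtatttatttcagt
Ly6a2: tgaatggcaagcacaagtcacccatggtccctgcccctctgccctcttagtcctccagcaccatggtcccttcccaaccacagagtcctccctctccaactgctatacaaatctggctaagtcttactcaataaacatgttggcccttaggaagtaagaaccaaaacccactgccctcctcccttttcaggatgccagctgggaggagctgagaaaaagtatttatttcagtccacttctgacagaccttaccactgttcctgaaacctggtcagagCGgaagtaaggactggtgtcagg
Each window holds 1 CG, and 14.1% of 32851 promoter windows of this length hold 1 or 0. None of the 3 holds TATAAA, read on either strand, between 40 and 20 bases before the start, where 2.31% of all windows hold it. Only that exact string was searched, and the similar string tatata, which Mucl2 holds in this stretch, was not counted. The Ly6g and Ly6a2 windows were identical at 79.4% of aligned bases, against 62.5% for Mucl2 with Ly6g and 58.7% for Mucl2 with Ly6a2. For Ly6g the table lists a second window, which is not shown. Promoters matched for 77.3% of the genes called lower and 78.1% of all genes, so the unmatched genes are missing from any comparison of these sets. Among matched genes, 6.81% of those called lower, 12.6% of those at least 2-fold lower and 3.21% of all held TATAAA in that stretch. Of those called higher it was 2.87%. Median CG counts were 9 for genes called lower, 17 for those called higher and 15 for all genes. These shares are a description and were not tested.

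Mucl2, which encodes a mucin-like secreted protein, read 5.98, 4.98 and 5.03 (log2 intensity) in KO Topo 1 to 3, against 10.90, 11.38 and 11.03 in WT Topo 1 to 3, a difference of -5.77 ± 0.20 (SE; limma, Benjamini-Hochberg adjusted p = 1.70e-14). Ly6g, the surface protein that marks neutrophils, read 6.19, 6.68 and 6.04 in KO Topo, against 11.77, 12.22 and 11.80 in WT Topo (-5.62 ± 0.17, limma adjusted p = 1.10e-15). Ly6a2, of the same family of small membrane-anchored proteins, read 6.88, 6.41 and 6.00 in KO Topo and 10.77, 11.72 and 11.06 in WT Topo (-4.75 ± 0.24, limma adjusted p = 1.69e-11). The KO Topo readings of Mucl2 lay near or below the 10th percentiles of their arrays (5.95, 5.68 and 5.62) and at the level of Y-linked Kdm5d and Uty, so the size of its difference may be understated. For each of these genes every KO Topo array lay far below every WT Topo array. KO Topo 1 was the highest KO Topo array for Mucl2 and Ly6a2 and not for Ly6g. Probes of near-identical family members can share signal, so the split among Ly6 genes is uncertain. Tac2, the precursor of neurokinin B, read 6.99, 6.50 and 6.47 in KO Topo and 10.31, 10.45 and 10.18 in WT Topo (-3.66 ± 0.20, limma adjusted p = 4.86e-11). Gpr50, an orphan receptor related to the melatonin receptors, read 5.93, 6.42 and 6.10 in KO Topo and 9.80, 9.77 and 9.80 in WT Topo (-3.64 ± 0.17). Pth, parathyroid hormone, read 5.09, 4.84 and 4.96 in KO Topo and 8.50, 8.90 and 8.20 in WT Topo (-3.57 ± 0.25, limma adjusted p = 1.96e-09). The WT Topo arrays of Gpr50 were almost alike, while those of Pth spread more, and neither gene's groups overlapped. The next 6 by size were Bpifb9b, a protein of the BPI fold family (-3.55 ± 0.21), the casein Csn1s2a (-3.44 ± 0.21), the parotid secretory protein Bpifa2 (-3.42 ± 0.21), neurotensin Nts (-3.40 ± 0.25), carbonic anhydrase Car1 (-3.32 ± 0.25) and pancreatic polypeptide Ppy (-3.29 ± 0.17). Each of the 12 was also called lower on the DMSO arrays.

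Ctla4 led the genes that were higher in KO Topo. Ctla4, an inhibitory receptor best known from T cells, read 11.09, 10.63 and 10.58 in KO Topo, against 7.97, 8.02 and 7.63 in WT Topo (2.89 ± 0.17, 7.43-fold, limma adjusted p = 1.02e-10). Il4, a cytokine of type 2 immunity, read 10.08, 10.19 and 9.69 in KO Topo and 7.78, 7.91 and 7.52 in WT Topo (2.25 ± 0.18, limma adjusted p = 1.11e-08). Dnmt3l, a cofactor of DNA methyltransferases, read 9.86, 10.38 and 10.07 in KO Topo and 7.97, 8.09 and 7.87 in WT Topo (2.13 ± 0.18, limma adjusted p = 4.63e-08). All KO Topo arrays lay above all WT Topo arrays for these 3 genes, and the highest was KO Topo 1 for Ctla4 and KO Topo 2 for the others. P2ry10, a receptor of lymphoid cells, read 7.62, 6.52 and 6.30 in KO Topo and 4.64, 4.91 and 4.91 in WT Topo (1.99 ± 0.33, limma adjusted p = 0.000196). Its highest array was KO Topo 1, the array with the higher means over thymocyte and macrophage genes. That array also had a higher 10th percentile (5.95) than KO Topo 2 and 3 (5.68 and 5.62). The part of those cells, or of that array's range of values, in the P2ry10 difference was not tested. The other 8 of the 12 were the acyl-CoA thioesterase Acot12 (2.23 ± 0.17), the secreted chemokine-like protein Tafa1 (2.09 ± 0.19), Ptchd4 (2.01 ± 0.18), Glipr1 (1.99 ± 0.31), the calcium-binding protein S100a5 (1.86 ± 0.24), the translation factor Eif5a2 (1.81 ± 0.16), the proteoglycan Epyc (1.78 ± 0.23) and the retinal G protein-coupled receptor Rgr (1.72 ± 0.18). All 12 were called higher on the DMSO arrays as well, including Glipr1 and P2ry10, whose standard errors were the widest of the 12.

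**Figure D1:**
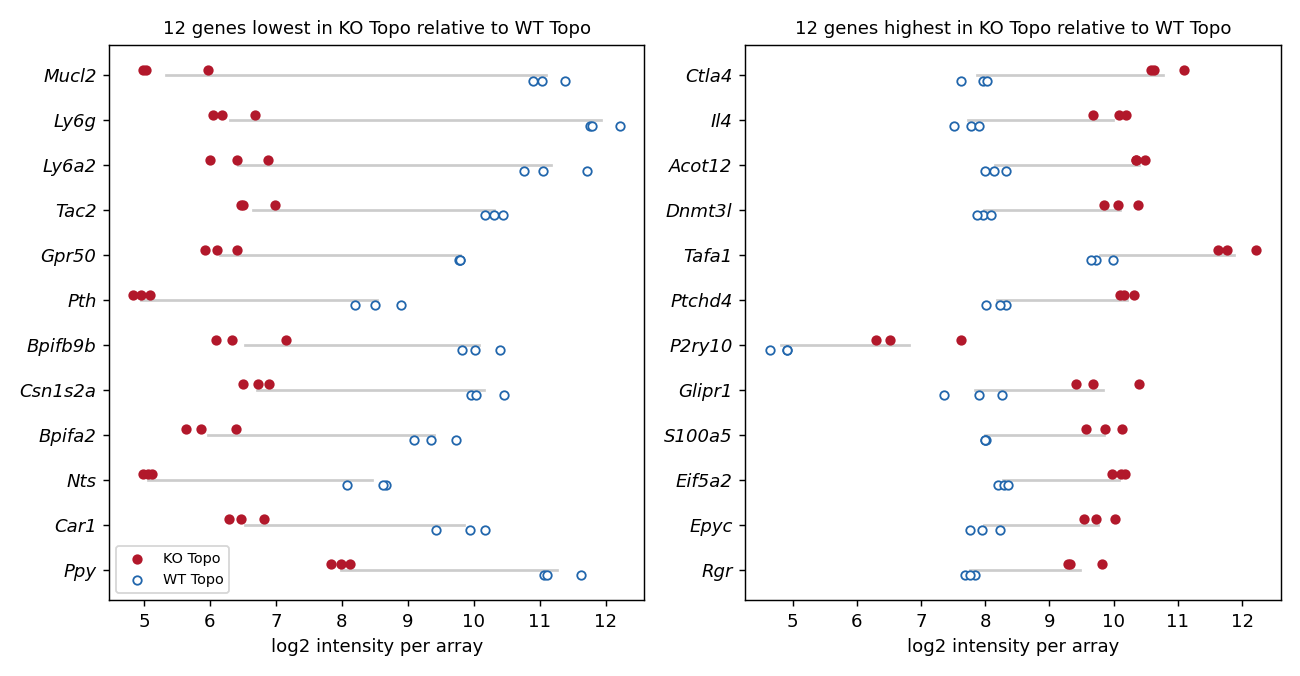
Log2 intensity (x axis) of the 12 genes with the most negative (left) and the 12 with the most positive (right) difference KO Topo minus WT Topo among those whose arrays did not overlap. Filled points are the 3 KO Topo arrays, open points the 3 WT Topo arrays, and the grey line joins the group means. Mucl2 sits at 4.98 to 5.98 in KO Topo and 10.90 to 11.38 in WT Topo, and Ctla4 at 10.58 to 11.09 in KO Topo and 7.63 to 8.02 in WT Topo.

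Over all 19752 genes, 2961 were called at an adjusted p under 0.05 (15.0%). Of these, 1061 were higher in KO Topo (5.37%) and 1900 lower (9.62%), and 144 were higher (0.729%) and 406 lower (2.06%) by at least 2-fold. The 3 KO Topo arrays did not overlap the 3 WT Topo arrays for 2674 genes with KO higher (13.5%) and 4239 with KO lower (21.5%). The median difference of all genes was -0.04, and it was 0.02 after quantile normalization and 0.06 with each array centred on its median. The count depends on scaling and on single arrays. Without WT Topo 1, 645 genes were called higher and 1402 lower, and without KO Topo 1, 1083 were higher and 1609 lower. Of the genes called, 35.8% were higher, a share that became 47.8% after quantile normalization (1627 higher and 1777 lower) and 55.4% with each array centred on its median (1712 higher and 1377 lower). Higher and lower refer to the deposited scale throughout.

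Aire itself read 11.78, 12.79 and 12.54 in KO Topo, against 11.71, 11.63 and 12.02 in WT Topo, and the difference was not called (0.58 ± 0.25, limma adjusted p = 0.126). Without KO Topo 1 it was called higher (0.88, limma adjusted p = 0.0154). With all 6 arrays the groups overlap, and since the Aire probe averages over the transcript it does not test the deletion. Topoisomerase genes did not pass either. Top1, the target of topotecan, differed by 0.06 ± 0.16 (limma adjusted p = 0.854), Top2a, the topoisomerase of dividing cells, by -0.66 ± 0.27 (adjusted p = 0.112) and Top2b by 0.14 ± 0.20 (adjusted p = 0.71). Top2a was called lower without KO Topo 3 (-0.93, limma adjusted p = 0.0275) or without WT Topo 1 (-0.96, adjusted p = 0.0261). Fezf2 differed by -0.12 ± 0.12 (limma adjusted p = 0.58).

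Tissue genes were counted in 16 lists by organ, which held 243 measured genes. The lists were drawn up with earlier results of these data known, so their shares are a description and no independent test. Of these, 106 were lower in KO Topo (43.6%, against 9.62% of all genes) and 8 were higher (3.29%, against 5.37%), with a median difference of -0.36 (-0.04 over all genes), and 129 did not pass. At an unadjusted p under 0.05 in limma 122 were lower and 15 higher. Without KO Topo 1 the counts were 107 lower and 8 higher, and without WT Topo 1 they were 95 and 5. The lists differed widely in the share of members called. Each count by list below stands beside 9.62% of all genes called lower and 5.37% called higher.

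Airway and pancreas genes had the lowest medians of the 16 lists with all genes kept. Without the dimmest 30% of genes the medians were -1.88 for pancreas and -1.42 for airway, beside -2.46 for salivary and lacrimal glands and -1.46 for teeth and bone. Of 11 airway genes, 10 were lower (90.9%, against 9.62% of all genes) and 0 higher (against 5.37%), with a median of -1.38. Bpifb1, a secreted protein of airway epithelium, read 7.36, 7.20 and 7.24 in KO Topo, against 9.95, 9.48 and 9.64 in WT Topo (-2.43 ± 0.16, limma adjusted p = 9.66e-10). Muc5b, an airway mucin, differed by -2.21 ± 0.20 and Cyp2f2, a cytochrome of club cells, by -2.03 ± 0.25. Bpifa1, another secreted airway protein, read 11.37, 9.57 and 10.90 in KO Topo and 12.61, 12.30 and 12.65 in WT Topo (-1.91 ± 0.31). Its KO Topo arrays spread over more than a log2 unit yet stayed below the WT Topo arrays. Of 14 pancreas genes, 9 were lower and 0 higher (median -1.59). They included the digestive protease precursor Ctrb1 (-2.37 ± 0.24), the zymogen granule protein Gp2 (-2.32 ± 0.23, whose difference on the DMSO arrays was -1.52 ± 0.23) and somatostatin Sst (-2.11 ± 0.22). Array means of the pancreas list were 7.62 to 7.86 in KO Topo and 9.09 to 9.14 in WT Topo. Those of the airway list were 8.04 to 8.41 in KO Topo and 9.51 to 9.68 in WT Topo.

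Genes of the gut and of hormones followed. Of 29 stomach and intestine genes, 20 were lower (69%, against 9.62% of all genes) and 0 higher (against 5.37%), with a median of -0.81. Array means of that list were 7.85 to 8.07 in KO Topo and 9.12 to 9.19 in WT Topo. Reg3b, an antimicrobial lectin of the gut, read 7.22, 6.97 and 7.81 in KO Topo and 10.84, 10.02 and 10.74 in WT Topo (-3.20 ± 0.32, limma adjusted p = 3.21e-07). Tff3, a trefoil peptide of goblet cells, read 8.61, 8.48 and 8.91 in KO Topo and 11.76, 11.39 and 11.44 in WT Topo (-2.86 ± 0.17). Neither gene's groups came within 2 log2 units of each other. The stomach mucin Muc5ac (-2.86 ± 0.14) and pepsinogen Pgc (-2.51 ± 0.16) were lower as well. Of 29 hormone and neuropeptide genes, 17 were lower and 2 higher (median -0.72). Besides Tac2, Pth and Nts, the galanin gene Gal was among the lower ones (-2.86 ± 0.18), reading 7.82, 7.32 and 7.32 in KO Topo and 10.16, 10.46 and 10.42 in WT Topo. The 2 higher genes, named after their values were seen, were Calcb, a calcitonin gene-related peptide (0.85), and neuromedin B, Nmb (0.58), and the list had 1 higher on leaving out any 1 of the 6 arrays but KO Topo 1.

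Of 16 salivary and lacrimal gland genes, 9 were lower (56.2%, against 9.62% of all genes) and 0 higher (against 5.37%), with a median of -0.69. The lower ones were led by Mucl2 and Bpifa2 and by Dcpp3 (-2.82 ± 0.22) and Dcpp1 (-2.10 ± 0.30). The last 2 are secreted gland proteins of 1 family of similar sequence. Without the dimmest 30% of genes the median of that list was -2.46, with 5 called lower. Of 23 liver genes, 12 were lower and 0 higher (median -0.43). Cyp1a2, a cytochrome that metabolises foreign compounds, was lower by 5.58-fold, the fibrinogen chain Fgg differed by -2.19 ± 0.16, albumin Alb by -1.86 ± 0.20 and the apolipoprotein Apoa1 by -1.31 ± 0.29. Alb read 6.75, 7.33 and 7.11 in KO Topo, against 8.93, 8.96 and 8.89 in WT Topo, with no overlap. Of 11 tooth and bone genes, 6 were lower and 0 higher (median -0.62), all of them enamel genes or their proteases, with Amtn at -2.61 ± 0.23, Amelx at -2.11 ± 0.22, Enam at -1.51 ± 0.25 and Klk4 at -0.81 ± 0.15. Without the dimmest 30% of genes that median was -1.46, with 3 lower. Of 7 milk genes, 3 were lower and 1 higher (median -0.36, which was -1.27 without the dimmest 30% of genes and -0.22 without WT Topo 1). Csn1s1, a casein, read 7.75, 6.51 and 6.56 in KO Topo and 7.91, 8.54 and 8.30 in WT Topo (-1.31 ± 0.27), so that KO Topo 1 stood near WT Topo 1. The higher member, named after its value was seen, was the casein Csn2 (0.35), and the list had 0 higher on leaving out any 1 of the 6 arrays but KO Topo 1.

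Granule proteins of mast cells and granulocytes were lower in 6 of 11 cases (54.5%, against 9.62% of all genes) and higher in 0 (against 5.37%), with a median of -0.61. Mcpt2, a mast cell protease, read 6.07, 5.27 and 5.33 in KO Topo, against 8.44, 9.24 and 8.80 in WT Topo (-3.27 ± 0.28, limma adjusted p = 4.48e-08). Mcpt1 differed by -2.24 ± 0.29 and Mcpt4 by -1.55 ± 0.29, and the 3 proteases are similar in sequence, so their split is uncertain. Prg2, the eosinophil major basic protein, did not pass, with 0.91 ± 0.34 (limma adjusted p = 0.0839), but was called higher without KO Topo 1 (1.17, adjusted p = 0.0383). In the Ly6 family 4 of 11 members were lower and 1 higher (median -0.40), with Ly6f at -2.55 ± 0.28, Ly6d, a marker of squamous epithelium, at -1.36 ± 0.17 and Slurp1, a secreted member, at -0.95 ± 0.20. The higher member, named after its value was seen, was Ly6i (0.67). The median was -0.55 without KO Topo 1 (6 lower), -0.19 without KO Topo 2 and -0.26 without KO Topo 3.

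At an unadjusted p under 0.05 in limma, 0 members were higher in the airway, pancreas, stomach and intestine, salivary and tooth lists, and 1 each in the liver and the mast cell and granulocyte lists. In other tissue lists few members passed. Cornified epidermis had 25% called lower. Germ cells had 12.5%, striated muscle 11.8%, genes that depend on Fezf2 10%, nervous system 8.33% and retina 7.14%, near the 9.62% of all genes. Members of those lists are named as a description. Of 16 cornified epidermis genes, 4 were lower and 1 higher (median -0.20, which was -0.34 without KO Topo 1 and -0.05 without KO Topo 2), with Krt1 (-2.18 ± 0.22) and Krt10 (-1.35 ± 0.19), keratins of the suprabasal epidermis, and the skin protease Klk5 (-1.40 ± 0.18) lower. The higher one, Flg2, read 7.50, 6.33 and 6.46 in KO Topo and 6.12, 6.18 and 6.11 in WT Topo (0.63 ± 0.21, limma adjusted p = 0.0419), and its difference rests on KO Topo 1. Without that array it was 0.26 (limma adjusted p = 0.289), and without any 1 of the WT Topo arrays it was not called. Of 17 striated muscle genes 2 were lower, the acetylcholine receptor subunit Chrna1 (-1.49 ± 0.18) and the muscle glycogen phosphorylase Pygm (-0.33 ± 0.11), whose call was lost on leaving out any 1 of the 6 arrays but WT Topo 3. Of 14 retina genes 1 was lower, the rod transducin Gnat1 (-0.58 ± 0.15), and of 12 genes of the nervous system 1, the neurofilament Nefl (-1.41 ± 0.19). Among 16 germ cell genes the egg coat proteins moved in both directions. Zp3 (-1.73 ± 0.20) and Zp1 (-0.99 ± 0.12) were lower and Zp2 (0.99 ± 0.13) higher, and Zp2 read 11.59, 11.78 and 11.61 in KO Topo and 10.70, 10.84 and 10.49 in WT Topo. Among 10 genes known to depend on Fezf2, 1 was lower, Krt10, and 2 were higher, monoamine oxidase Maoa (1.62 ± 0.19) and the sulfotransferase Sult1c2 (0.70 ± 0.18). Maoa read 9.55, 9.07 and 9.48 in KO Topo, against 7.72, 7.73 and 7.81 in WT Topo, with more than 1 log2 unit between the groups.

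**Figure D2:**
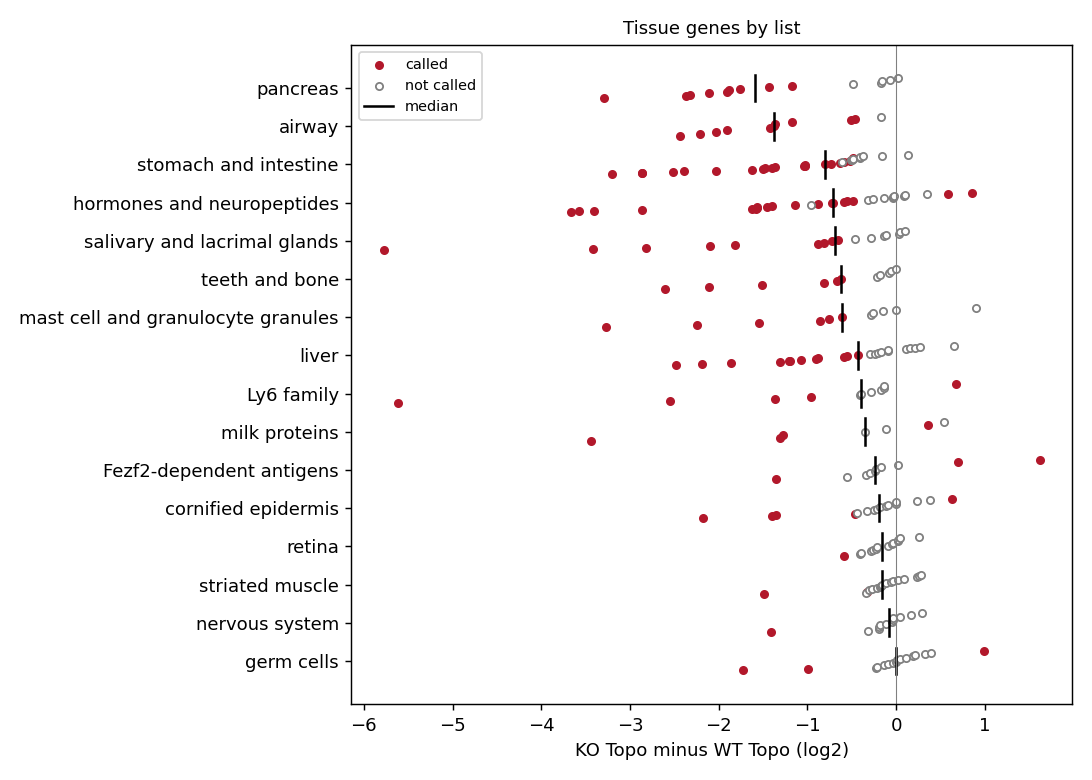
Difference KO Topo minus WT Topo on the log2 scale (x axis) for each measured member of 16 tissue gene lists (y axis, ordered by median). Filled points were called at an adjusted p under 0.05, open points were not, and the black bar is the list median. Pancreas (-1.59) and airway (-1.38) lie at one end, and germ cell genes (0.0046) at the other.

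Among genes of the MECs themselves, 19 defining markers had a median difference of 0.11, with 1 lower and 2 higher (4 higher without KO Topo 1). Of all genes, 9.62% were called lower and 5.37% higher. The epithelial and antigen-presentation markers Epcam, Cd74, Ciita, H2-Aa, H2-Ab1 and H2-Eb1, named after their values were seen, were not called. Cd83, a maturation marker, read 9.98, 9.44 and 9.67 in KO Topo and 8.42, 8.48 and 8.62 in WT Topo (1.19 ± 0.15, limma adjusted p = 7.44e-06). The costimulatory ligand Cd86 was higher (1.11 ± 0.18), and the basal keratin Krt5, a marker of less mature MECs, was lower (-1.18 ± 0.23). Array means of the markers were 11.33 to 11.54 in KO Topo and 11.28 to 11.38 in WT Topo and overlapped. Of 13 chemokines and cytokines made by MECs, 5 were lower and 2 higher (median -0.19). Without WT Topo 2 only 2 were lower (median -0.11), and without KO Topo 2 or WT Topo 1 it was 3. Ccl20, which attracts CCR6-bearing cells, differed by -1.20 ± 0.19, Ccl17, a ligand of CCR4, by -0.95 ± 0.26 and Xcl1, which attracts dendritic cells, by -0.83 ± 0.17. Ccl17 was not called without KO Topo 2 (limma adjusted p = 0.0546) or without WT Topo 2 (adjusted p = 0.125). Il15, a cytokine of T and NK cells, read 11.30, 11.28 and 11.11 in KO Topo, against 9.51, 10.13 and 9.82 in WT Topo (1.41 ± 0.16, limma adjusted p = 1.58e-06). Of 21 interferon response genes, 11 were lower and 0 higher (12 and 1 at an unadjusted p under 0.05 in limma, median -0.55), with Ifit3 at -1.72 ± 0.26, Rtp4 at -1.30 ± 0.23, Rsad2 at -1.09 ± 0.25 and Ifit2 at -0.91 ± 0.20. Their array means were 8.59 to 8.73 in KO Topo and 9.01 to 9.26 in WT Topo.

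Of 30 Aire partners and topoisomerases, 0 were lower and 4 higher, against 9.62% and 5.37% of all genes (3 and 5 at an unadjusted p under 0.05 in limma). Besides Dnmt3l these were Tdp1, which removes trapped topoisomerase I from DNA (0.60 ± 0.14, limma adjusted p = 0.00407), the deacetylase Sirt1 (0.59 ± 0.13, adjusted p = 0.00235) and, named after its value was seen, the acetyltransferase Crebbp (0.48). Tdp1 read 10.04, 10.34 and 10.45 in KO Topo and 9.36, 9.93 and 9.73 in WT Topo, with no overlap. Of 17 p53 targets, 1 was lower (5.88%, against 9.62% of all genes), the desmosomal protein Perp (-0.96 ± 0.15). Another 3 were higher, among them the receptors Eda2r (1.13 ± 0.19) and Fas (0.76 ± 0.14). The DMSO arrays also had 1 of the 17 lower and 3 higher in KO. Of 27 mitosis genes 1 was lower, cyclin A2, Ccna2 (-0.78 ± 0.26, limma adjusted p = 0.0458), with a list median of -0.32, and 14 were lower at an unadjusted p under 0.05. The call of Ccna2 was lost without KO Topo 1, KO Topo 2, WT Topo 2 or WT Topo 3. Without KO Topo 1, which had the lowest mean of the 6 arrays, the list median was -0.14, with 0 lower and 1 higher. The number called lower was 8 without KO Topo 3, 7 without WT Topo 1, 7 with the replicate number as a block, 2 without KO Topo 2 and 0 without WT Topo 2. Array means of that list were 7.31 to 7.88 in KO Topo and 7.79 to 8.13 in WT Topo.

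Markers of other cells were measured in the same way, beside 9.62% of all genes called lower and 5.37% higher. Of 18 thymocyte genes 0 were called by limma in either direction (1 lower and 0 higher at an unadjusted p under 0.05, median -0.03), and array means were 7.07 to 7.54 in KO Topo and 7.19 to 7.26 in WT Topo. Of 19 macrophage and dendritic cell genes 3 were lower, among them Cd14 (-1.23 ± 0.17) and Itgam (-1.09 ± 0.12), and 2 were higher, Cd68 (1.10 ± 0.13) and Batf3 (0.73 ± 0.13). Without KO Topo 1, 5 were lower. Array means were 7.66 to 8.18 in KO Topo and 7.83 to 7.87 in WT Topo. Of 9 B cell genes 1 was lower, Cd22 (a call lost without KO Topo 2 or WT Topo 1), and 2 were higher, Cr2 (1.07 ± 0.16) and Blk (0.75 ± 0.12), with array means of 8.32 to 8.37 in KO Topo and 8.13 to 8.23 in WT Topo, which did not overlap. Of 12 genes of cortical epithelium 5 were lower, with Enpep, the antigen Ly51 that the gate required to be low, at -1.01 ± 0.16, and 2 were higher, with Kitl at 0.99 ± 0.13. Only 3 were lower without KO Topo 1, KO Topo 2, WT Topo 2 or WT Topo 3, and the array means, 9.36 to 9.52 in KO Topo and 9.53 to 9.63 in WT Topo, did not overlap. Tuft-like epithelium had 1 lower of 18, Dclk1 (-0.61 ± 0.18), whose call was lost on leaving out any 1 of the 6 arrays but KO Topo 3, and its array means were 9.74 to 9.97 in KO Topo and 9.84 to 10.10 in WT Topo. Stroma and endothelium had 2 lower and 1 higher of 17, the last being decorin, Dcn (0.97 ± 0.13). By limma 0 of the 17 were lower without KO Topo 1, WT Topo 2 or WT Topo 3, and the array means, 8.13 to 8.30 in KO Topo and 8.35 to 8.401 in WT Topo, did not overlap. In bulk samples fewer cells of a type and less RNA per cell cannot be told apart, and the part of such cells in the differences above was not tested.

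The genes that differed between genotypes without the drug were then followed on the Topo arrays. On the DMSO arrays 640 genes (3.24%) were at least 2-fold lower in KO and 136 (0.689%) at least 2-fold higher, at an adjusted p under 0.05. Of the 640, 562 were called lower in KO Topo (87.8%, against 9.62% of all genes) and 0 higher (also 0 at an unadjusted p under 0.05), and 315 were again at least 2-fold lower. Their median difference was -0.99 on the Topo arrays and -1.45 on the DMSO arrays. Of the 136, 121 were called higher in KO Topo (89%, against 5.37% of all genes) and 0 lower (also 0 at an unadjusted p under 0.05), with a median of 1.14 on the Topo arrays and 1.20 on the DMSO arrays. The arrays did not overlap for 581 of the 640 genes (21.5% of all genes) and for 124 of the 136 (13.5%). Selecting genes on the DMSO arrays favours large differences there, so the sizes on both sets are not compared from these lists. Without KO Topo 1 the first count was 572, and with each set of 6 arrays fitted alone 549 of 641 were lower and 122 of 138 higher.

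Of the 640 genes, 78 were not called on the Topo arrays. Their median difference was -0.40 there and -1.19 on the DMSO arrays, and 73 of the 78 lay below 0 under Topo. Without the 2-fold minimum, 12% of all genes were called lower and 7.40% higher on the DMSO arrays. Of these calls, 1369 were lower on the Topo arrays too (72.1% of the Topo calls and 57.9% of the DMSO calls), 806 were higher on both (76% and 55.1%), and 0 were called in opposite directions. A further 531 genes were lower on the Topo arrays alone, with medians of -0.55 under Topo and -0.27 under DMSO, and 512 of them lay below 0 under DMSO. Another 255 were higher on the Topo arrays alone (0.57 under Topo and 0.34 under DMSO), 249 of them above 0 under DMSO. Of these 531 and 255 genes, 0 were called in the test, described below, of whether the genotype difference itself differed between treatments. That test called only 0.0759% of all genes, so the 0 does not show that the differences were equal.

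A list from arrays of neither treatment allowed sizes to be set side by side. On the Etopo arrays 555 genes (2.81%) were at least 2-fold lower in KO and 146 (0.739%) at least 2-fold higher. Of the 555, 502 were lower in KO Topo (90.5%, against 9.62% of all genes) and 0 higher (against 5.37%, and also 0 at an unadjusted p under 0.05). Their median difference was -1.17 under Topo and -1.50 under DMSO. The difference was smaller under Topo than under DMSO for 381 of the 555 genes (68.6%), against 53.2% of all genes. The mean over these 555 genes was 7.52, 7.28 and 7.40 in KO Topo, against 8.65, 8.84 and 8.71 in WT Topo. On the DMSO arrays the same mean was 7.25, 7.36 and 7.24 in KO and 9.03, 8.90 and 8.88 in WT. The arrays of the KO sets overlapped, with group means of 7.40 under Topo and 7.28 under DMSO. KO Topo 1 and KO Topo 3 lay above each KO DMSO array. Each WT Topo array lay below each WT DMSO array, with group means of 8.73 and 8.93. By size on the Etopo arrays, 438 genes lower by 2 to 4-fold had medians of -1.03 under Topo and -1.32 under DMSO, and 85 genes lower by 4 to 8-fold had -1.98 and -2.52. For the 32 genes lower by over 8-fold the medians were -2.87 and -3.85, and 31 of the 32 had the smaller difference under Topo. Without KO Topo 1 the median of the 555 was -1.21 under Topo. Of the 146 genes higher in KO Etopo, 139 were higher in KO Topo (95.2%, against 5.37% of all genes). Over the 146 the medians were 1.12 under Topo and 1.07 under DMSO, and 71 of the 146 (48.6%) had the smaller difference under Topo.

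**Figure D3:**
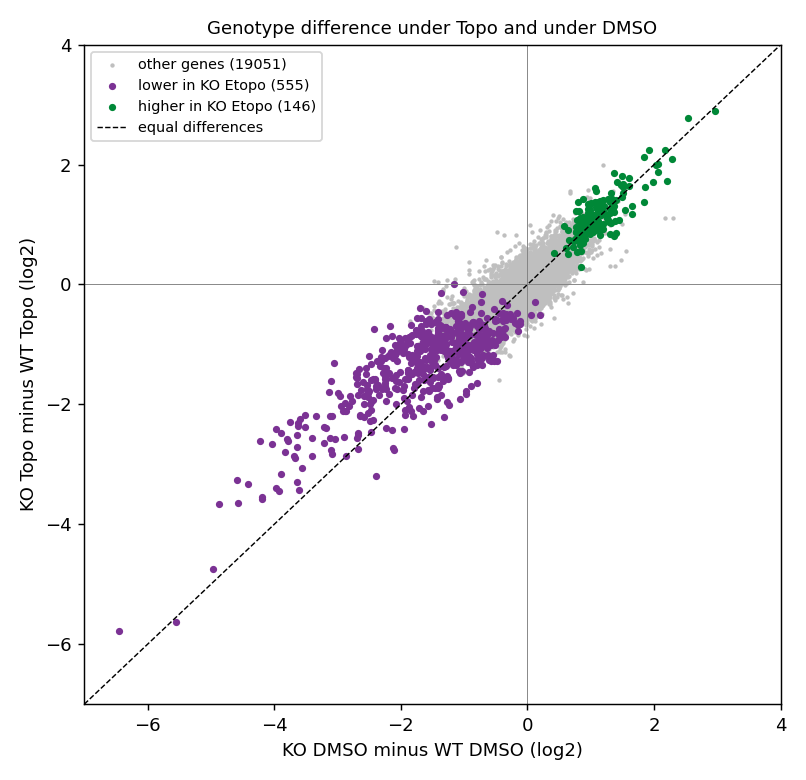
Genotype difference on the log2 scale under Topo (y axis, KO Topo minus WT Topo) and under DMSO (x axis, KO DMSO minus WT DMSO) for 19752 genes. Purple points are the 555 genes lower and green points the 146 genes higher by at least 2-fold in KO Etopo, and the dashed line marks equal differences. Purple points with large differences lie mostly above the line (median -1.17 under Topo and -1.50 under DMSO), while green points lie on both sides of it.

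**Figure D4:**
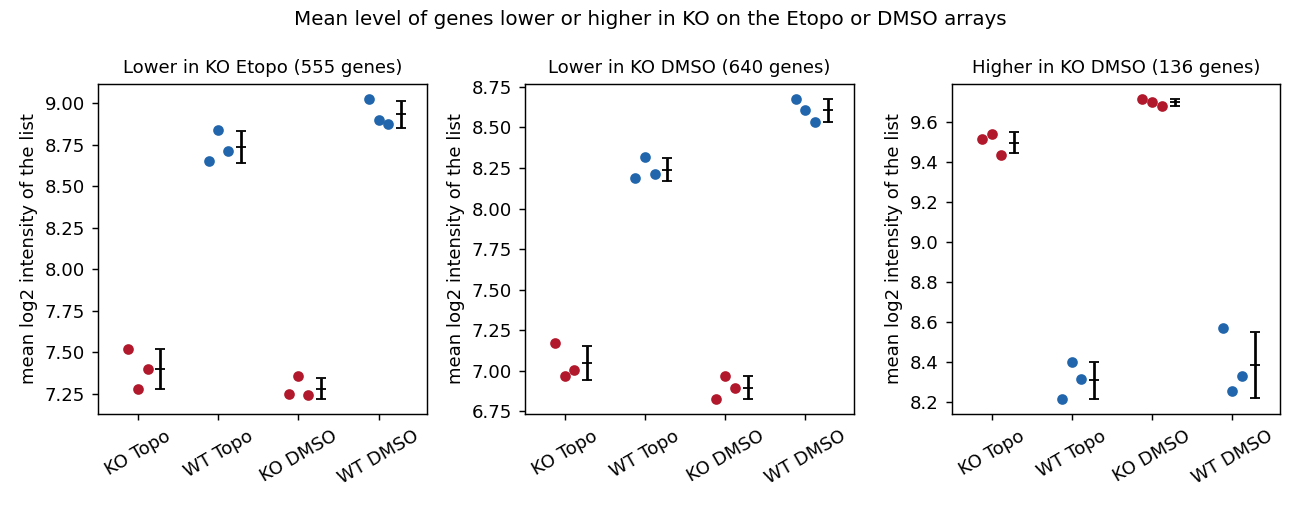
Mean log2 intensity per array (y axis) of the 555 genes lower in KO Etopo, the 640 lower in KO DMSO and the 136 higher in KO DMSO. Points are arrays, and the bar beside them is the mean with 1 SD (n = 3 per group). For the 555 genes the WT Topo arrays (8.65 to 8.84) lie below the WT DMSO arrays (8.88 to 9.03), and the KO Topo arrays (7.28 to 7.52) overlap the KO DMSO arrays (7.24 to 7.36).

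The test of whether a gene's genotype difference itself differed between Topo and DMSO called 15 genes (0.0759%), all with the smaller difference under Topo, and 0 the other way. At an unadjusted p under 0.05 there were 936 genes, against 988 that 5% of all genes would give. All 15 were lower in KO DMSO, and 13 of them were still called lower in KO Topo. The exceptions were Car6, a secreted carbonic anhydrase of saliva, and A2m, a protease inhibitor of plasma (-0.39 under Topo and -1.65 under DMSO, named after its values were seen). All 15 also had a smaller difference on the Etopo arrays than on the DMSO arrays (-1.39 and -2.24 for Nid1, -0.85 and -1.65 for A2m). A smaller difference than on the DMSO arrays was thus not particular to Topo, and Etopo was not tested against DMSO in this way. The count called in the Topo test was unstable. It was 373 with array weights, 30 with log2(value + 32), 27 after quantile normalization and 0 with the replicate number as a block. It was 0 without WT Topo 3, 1 without KO DMSO 1, 3 without KO DMSO 3 or WT DMSO 1, 4 without WT Topo 1 or WT DMSO 3, 5 without KO Topo 3, and 2 without both KO DMSO 1 and WT DMSO 1, the arrays of each genotype on which thymocyte genes stood highest (means of 8.62 and 8.20, against 7.23 to 7.47 on the other DMSO arrays).

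Nid1, a basement membrane protein, gave the lowest adjusted p of the 15. It read 7.40, 7.32 and 7.28 in KO Topo, against 8.26, 8.34 and 8.08 in WT Topo (-0.89 ± 0.13). On the DMSO arrays it read 7.29, 7.30 and 7.21 in KO and 9.79, 9.28 and 9.44 in WT (-2.24 ± 0.13), so that the difference between differences was 1.34 ± 0.18 (limma adjusted p = 0.0070). The KO arrays of both treatments were nearly alike, and each WT Topo array lay below each WT DMSO array. For Cyp1a2 each WT Topo array (8.60, 8.64 and 8.75) also lay below each WT DMSO array (9.99, 9.57 and 9.71). Its KO arrays were less alike, with 6.40, 6.33 and 5.82 in KO Topo and 5.88, 5.94 and 5.75 in KO DMSO. The KO means were 6.18 under Topo and 5.86 under DMSO. For Car6 every KO Topo array lay above every KO DMSO array. It read 8.71, 9.16 and 8.66 in KO Topo and 8.88, 8.97 and 8.88 in WT Topo, which overlap, beside 7.82, 8.49 and 7.98 in KO DMSO and 9.51, 9.47 and 9.31 in WT DMSO, which do not.

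**Figure D5:**
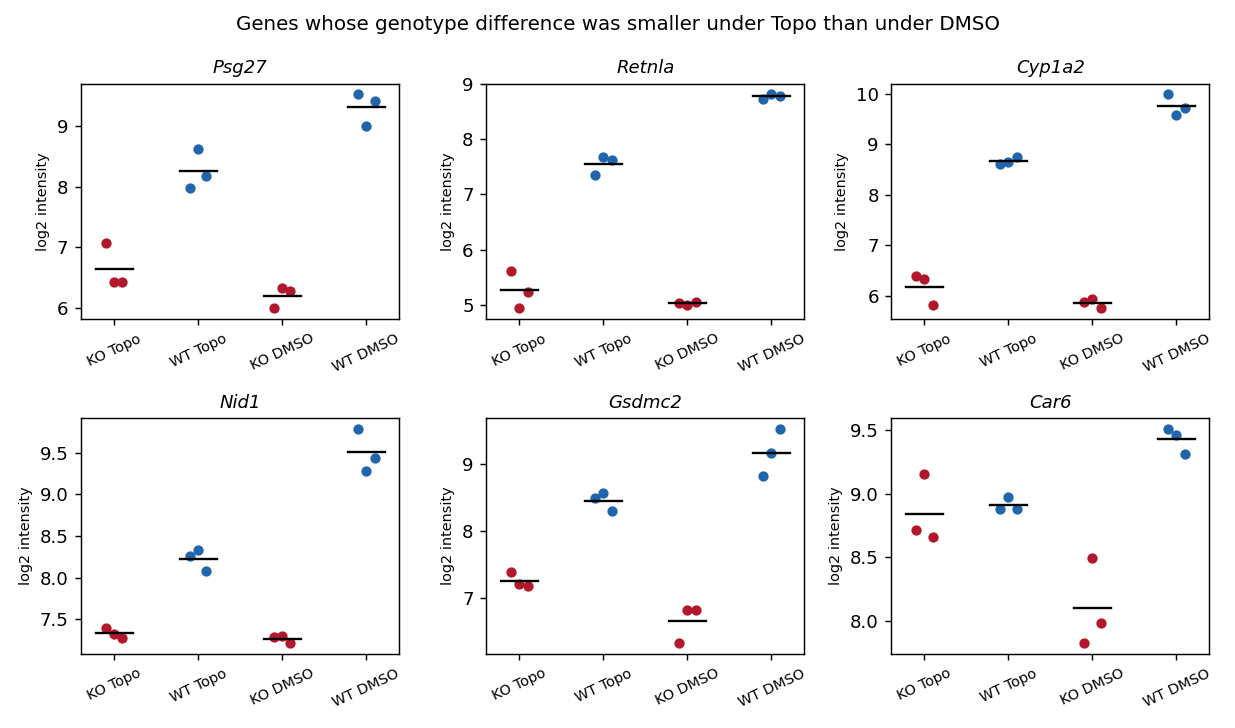
Log2 intensity per array (y axis, which does not start at 0 and differs between panels) in KO Topo, WT Topo, KO DMSO and WT DMSO for the 6 genes with the largest change of the genotype difference among those whose change was called, leaving out 1 clone-named gene. Points are arrays and bars group means (n = 3 per group). For Nid1 the KO Topo arrays (7.28 to 7.40) and KO DMSO arrays (7.21 to 7.30) are close together, while WT Topo (8.08 to 8.34) lies below WT DMSO (9.28 to 9.79).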

How the data were processed

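Values were the deposited probe intensities of Affymetrix whole-transcript arrays, on a linear scale. Per the submitters' processing notes the authors used Affymetrix Power Tools and RMA, and versions are not given in the sources used here. The design had assumed log2 values, so log2 of the deposited intensities was taken, with no pseudocount and no further normalization. Of 24922 probes, 21425 had 1 gene symbol in the platform annotation, 1399 had several and 2098 none here, and only probes with 1 symbol were used. Identifiers of 21347 probes matched the RefSeq genes of assembly GRCm38.p6, and 0 symbols changed. The brightest probe per symbol was kept (19752 genes). Probes of 1 gene were not compared with each other.

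Differences were fitted in limma 3.58.1 under R 4.3.3, with 1 mean per group over all 22 arrays, 14 residual and 7.22 prior degrees of freedom, and Benjamini-Hochberg adjustment over all genes. A gene was called at an adjusted p under 0.05. The groups of a comparison share no array, but all share 1 estimate of the spread, to which the Etopo Topo arrays of 4 weeks also contributed. In the setting with array weights, KO Etopo Topo 1 and 2 each had a weight of 0.21. With only the 6 Topo arrays in the fit, 1007 genes were called higher and 1735 lower. The script was tested on simulated data. Members and gene lists were chosen with earlier results of these data known. Named genes were up to 12 each way with non-overlapping arrays, up to 6 each way of the difference between treatments, 4 per list by size, and Aire, Fezf2, Top1, Top2a and Top2b, leaving out predicted and clone-named genes and receptor families. Others are marked as named after their values were seen. Of 499 list members asked for, 467 were measured. Arrays have no read depth, and 3 arrays per group limit the precision. The dimmest values are compressed on such arrays, so large differences may be understated.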

Additional observations from a re-analysis of the deposited data

Results flagged for a closer look

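For 6 named genes the genotype difference itself differed between the treatments in the limma fit, and each was smaller under Topo. The difference between differences (KO minus WT under Topo, less KO minus WT under DMSO) was 1.499 ± 0.28 for Psg27, a pregnancy-specific glycoprotein (adjusted p = 0.0401), with -1.61 under Topo and -3.11 under DMSO. It was 1.46 ± 0.26 for Retnla, a secreted protein of alternatively activated macrophages (adjusted p = 0.0276), with -2.29 under Topo and -3.75 under DMSO. Cyp1a2 gave 1.42 ± 0.25 (adjusted p = 0.0267), with -2.48 and -3.90. Nid1 gave 1.34 ± 0.18 (adjusted p = 0.0070), with -0.89 and -2.24. Gsdmc2, a gasdermin, gave 1.31 ± 0.23 (adjusted p = 0.0251), with -1.19 and -2.51. Car6 gave 1.26 ± 0.24 (adjusted p = 0.0444), with -0.07 and -1.33. Over the other settings tried, each kept its direction, and the adjusted p ran up to 0.0977 for Nid1 (over 0.05 in 2 of 22 settings), 0.111 for Gsdmc2 (10 of 22), 0.224 for Cyp1a2 (11 of 22), 0.234 for Retnla (12 of 21), 0.268 for Psg27 (12 of 22) and 0.268 for Car6 (13 of 22). The 6 genes were chosen for this difference, so their sizes are a description. On the Etopo arrays the differences were -2.88 for Psg27, -3.17 for Retnla, -3.245 for Cyp1a2, -1.39 for Nid1, -2.15 for Gsdmc2 and -0.81 for Car6. Each of these lay between the values under DMSO and under Topo.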

How the results depend on the processing

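Of 238 recomputed counts and medians, 199 stayed within 1.5 times (counts) or the spread between arrays (medians), and 39 moved. The medians kept their sign. Counts have no direction, but with arrays centred on their median more genes were called higher (1712) than lower (1377), unlike in the main fit. Genes called higher in KO Topo numbered 1627 after quantile normalization, 1712 with arrays centred on their median and 2674 of 6342 with array weights (3668 lower), where KO Topo 1 had a weight of 0.177. Genes whose difference differed between treatments numbered 27 after quantile normalization, 30 with log2(value + 32), 23 with an intensity trend, 373 with array weights, 0 with the replicate number as a block and 2 without both thymocyte-high DMSO arrays, a setting chosen after seeing the data. For the genes lower in KO DMSO the Topo median was -0.89 centred, -0.83 with log2(value + 32) and -1.16 without the dimmest 30% of genes. Without the 2-fold minimum, 1369 of the genes lower in KO DMSO were lower in KO Topo (median -0.50), and 806 of the genes higher in KO DMSO were higher. For the genes lower in KO Etopo the DMSO median was -1.38 after quantile normalization, -1.41 centred, -1.40 with array weights and -1.28 with log2(value + 32), where the Topo median was -1.002. Calls shared with DMSO numbered 1331 higher centred, and 2461 lower and 1882 higher with array weights. Tissue genes higher numbered 14 centred, 18 with array weights and 5 with the block.

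Leaving out 1 array at a time gave 2047 to 2719 calls (645 to 1083 higher, 1402 to 1814 lower), 507 to 572 lower of the genes lower in KO DMSO (medians of -1.04 to -0.95), 116 to 121 higher of those higher in KO DMSO, 0 to 19 genes differing between treatments, 1077 to 1328 shared lower and 538 to 882 shared higher, Etopo-list medians of -1.21 to -1.12 under Topo and -1.56 to -1.44 under DMSO, and 95 to 107 tissue genes lower and 5 to 8 higher. The replicate numbers did not pair the Topo arrays (correlations of deviations of 0.05, -0.20 and 0.32, where 1 of 3 numbers correlated best with itself), and the fit with the replicate block called 815 higher and 1474 lower. Of 134 named genes, 1899 of 1993 recomputed differences kept their side of the threshold, 53 no longer passed and 41 newly passed. Of those called in the main fit, 0 reversed. A change of sign in a gene not called there was counted as kept. List medians changed sign for thymocytes (5 of 15 settings), germ cells (4), macrophages and dendritic cells (3), nervous system, p53 targets and tuft-like epithelium (2 each), and Aire partners and stroma (1 each). The causes were not tested. With 3 arrays per group and array signal compressed near background, differences of dim genes are the least certain.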

Other observations

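Genes called in the same direction in KO Topo often lay next to each other. Of the 1900 genes called lower, 34.7% had a called-lower gene as the next measured gene on 1 side or the other, against 17.7% of all genes with a position, and of 1058 positioned genes called higher, 29.5% had a called-higher neighbour, against 10.2% of all. Neighbours include families of similar sequence, such as the Ly6, Mcpt and Dcpp genes, whose probes can share signal, and their part in these shares was not tested.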
